A study of Mus musculus with 112 samples.

Results

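The 4 genes described here, Bdh1, Oxct1, Acat1 and Acss1, encode mitochondrial enzymes that turn ketone bodies and acetate into acetyl-CoA. They are 4 of the 32544 gene symbols in the count tables. They were chosen by measured values of these same libraries, namely their lower counts in the immobilized limb than in the control limb of the same mouse and the way those changes followed Ppargc1a and Ppara from mouse to mouse, so the immobilized limb against the control limb is given for them as a description without a test. RNA was sequenced from the gastrocnemius, the large calf muscle, of both limbs of 56 mice of the Diversity Outbred population, where every animal carries its own mix of founder genomes. The 112 libraries form 4 groups of 28, namely male immobilized, male control, female immobilized and female control limbs. All mice were 16 weeks old and wore a cast on 1 limb for 3 weeks. The right limb was the immobilized one and the left limb the control in every animal, so body side and immobilization cannot be told apart, and the control limb comes from an animal that wore a cast on the other limb.

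Ketone bodies are made in the liver from fatty acids and are burned in muscle, heart and brain. The mitochondrial enzyme Bdh1 (3-hydroxybutyrate dehydrogenase) oxidizes 3-hydroxybutyrate to acetoacetate, Oxct1 (succinyl-CoA:3-oxoacid CoA transferase) moves a CoA group from succinyl-CoA onto acetoacetate, and Acat1 (mitochondrial acetoacetyl-CoA thiolase) splits the product into acetyl-CoA for the tricarboxylic acid cycle. Acss1 (mitochondrial acetyl-CoA synthetase) makes acetyl-CoA from acetate. Ppargc1a encodes PGC-1alpha, a coactivator of mitochondrial genes in muscle, and Ppara encodes the fatty acid receptor PPARalpha, which partners with it on genes of fat oxidation.

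The windows of 250 bases upstream of annotated starts of Bdh1, Oxct1 and Acss1 are shown because these genes were lower together and were chosen partly by correlation with Ppara and Ppargc1a. The protein products of these 2 genes act at promoters. The r of the Bdh1 and Acss1 changes with that of Ppargc1a was reached by 26.5% and 19.1% of all genes. A link between the windows and the lower levels was not tested. The windows come from RefSeq on GRCm38.p6, which matched 3 of the 4 genes, and Diversity Outbred alleles can differ from this reference.
Bdh1 window 1, chr16:31422047-31422296, plus strand: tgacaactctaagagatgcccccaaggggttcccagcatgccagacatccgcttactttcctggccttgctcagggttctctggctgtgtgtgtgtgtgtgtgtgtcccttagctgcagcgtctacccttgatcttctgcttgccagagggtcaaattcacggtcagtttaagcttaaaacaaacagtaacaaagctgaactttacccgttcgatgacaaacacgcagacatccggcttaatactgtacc
Bdh1 window 2, chr16:31428503-31428752, plus strand: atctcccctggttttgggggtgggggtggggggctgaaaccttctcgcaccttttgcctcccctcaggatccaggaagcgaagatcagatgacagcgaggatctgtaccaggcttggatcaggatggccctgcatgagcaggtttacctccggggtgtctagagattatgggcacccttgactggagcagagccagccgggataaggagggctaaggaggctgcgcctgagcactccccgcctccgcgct
Oxct1, chr15:4026178-4026427, plus strand: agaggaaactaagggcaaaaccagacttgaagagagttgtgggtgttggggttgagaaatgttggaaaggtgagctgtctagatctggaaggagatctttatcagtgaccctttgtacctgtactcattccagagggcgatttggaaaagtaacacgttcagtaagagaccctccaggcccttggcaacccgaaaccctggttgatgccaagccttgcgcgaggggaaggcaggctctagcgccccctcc
Acss1, chr2:150668241-150668490, minus strand: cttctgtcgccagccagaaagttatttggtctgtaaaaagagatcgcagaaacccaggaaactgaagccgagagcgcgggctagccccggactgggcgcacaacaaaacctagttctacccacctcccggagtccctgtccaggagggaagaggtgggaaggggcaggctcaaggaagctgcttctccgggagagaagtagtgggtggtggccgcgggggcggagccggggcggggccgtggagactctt
They are in lower case throughout because none of the motifs searched on both strands was found in them. The motifs were TNAAGGTCA for estrogen-related receptors, which 1.14% of 32851 such windows held, AGGTCA repeated after any 1 base for PPARs (0.0335%), the nuclear receptor half-site AGGTCA that lies inside both (14%), CCGGAAGT for GABPA (2.88%), GCGCA and GCGC with any 1 base between them for NRF1 (3.74%) and CTA and TAG with any 4 bases between them for MEF2 factors (3.2%). The absence of a match says only that these letters are not in these windows.

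The library totals lay between 1716485 and 9995936 counts with a median of 4395118. The label of skeletal muscle was matched by fibre transcripts in nearly every library. In 10 libraries from 10 mice (3 males, 7 females), 5 from immobilized and 5 from control limbs, the muscle actin gene Acta1 did not reach 50% of its median level over the libraries. The control limb of male 52 stood furthest out. It had 3.45 CPM of Acta1 (counts scaled to library size) and 6.28 CPM over 8 fibre markers together, so this library goes against its tissue label. This library had 20822 CPM over 8 adipocyte markers, against a median of 592 CPM in male control limbs. It held 238 CPM of Acat1, 32.7 CPM of Acss1 and 10.2 CPM of Ppara. The medians in male control limbs were 227, 33.6 and 3.69 CPM. Oxct1 (150 CPM, median 315) and Bdh1 (0.123 CPM, median 60.2) were lower in it. Adipocyte markers summed to 9526 CPM in the control limb of female 48, but to 581 CPM in the immobilized limb of male 35. Which cells gave these reads was not tested. Because of these libraries, the log2 fold changes of Bdh1, Oxct1, Acat1 and Acss1 by sex are given with and without these 10 mice. So are several of the correlations and counts of genes called. Overlaps between limbs, counts of mice, closest genes and shares of genes reaching an r are given for all mice only. Levels below are CPM with normalized library sizes, and they are compared between limbs or mice, never between genes.

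Bdh1, which starts the use of 3-hydroxybutyrate, showed the widest gap of the 4 genes. It had a lowest, median and highest level of 2.38, 14.9 and 39.7 CPM in male immobilized limbs, against 0.123, 60.2 and 162 CPM in male control limbs. The same values were 0.611, 7.35 and 40.1 CPM in female immobilized limbs, against 0, 34.1 and 130 CPM in female control limbs. The ranges overlapped at the low end, but none of the 56 immobilized limbs reached the control median of both sexes, 44.5 CPM, and 30 of 56 control limbs were above the highest immobilized limb. Within sex, 28 of 28 male and 26 of 28 female immobilized limbs were below the control median of their sex. The fitted log2 fold change (immobilized over control, edgeR) was -1.63 ± 0.41 in males and -1.96 ± 0.44 in females (SE, 28 mice each). Averaged over the sexes it was -1.79 ± 0.30, the position 3 from the lowest among 11886 genes tested.

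Both control limbs at the bottom of the Bdh1 range belong to mice in which it was higher in the immobilized limb. Male 52 had 36.5 CPM in its immobilized limb and 0.123 CPM (1 read) in its control limb, the library nearly without Acta1. Female 47 had 9.42 CPM in its immobilized limb and no read in its control limb, where 3 reads would be 0.941 CPM. Without the 10 mice with low Acta1 the log2 fold change of Bdh1 was -1.92 ± 0.34 in males and -2.19 ± 0.42 in females.

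Oxct1, which commits acetoacetate to oxidation, was lower by less. Its lowest, median and highest levels were 72.1, 195 and 410 CPM in male immobilized limbs, against 136, 315 and 620 CPM in male control limbs. They were 73.9, 192 and 347 CPM in female immobilized limbs, against 62.4, 336 and 532 CPM in female control limbs. The groups overlapped over most of their range, with 51 of 56 immobilized limbs below the control median. The log2 fold change was -0.62 ± 0.18 in males and -0.71 ± 0.18 in females, and without the 10 mice with low Acta1 it was -0.69 ± 0.13 in males and -0.72 ± 0.15 in females.

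Acat1, which also takes part in isoleucine breakdown, had the smallest difference. Its lowest, median and highest levels were 58.2, 180 and 307 CPM in male immobilized limbs, against 146, 227 and 361 CPM in male control limbs. They were 59.4, 169 and 246 CPM in female immobilized limbs, against 48, 227 and 324 CPM in female control limbs. The lowest control value, 48 CPM, was that of female 26, another library low in Acta1, and 46 of 56 immobilized limbs lay below the control median. The log2 fold change was -0.36 ± 0.13 in males and -0.44 ± 0.13 in females. It was -0.31 ± 0.08 in males and -0.39 ± 0.09 in females without the 10 mice.

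Acss1, the acetate enzyme, ranged over 4.95, 19.4 and 38.9 CPM (lowest, median, highest) in male immobilized limbs, against 8.58, 33.6 and 77.8 CPM in male control limbs. It had 6.92, 19.5 and 36.2 CPM in female immobilized limbs, against 7.82, 36.0 and 73.4 CPM in female control limbs. Of 56 immobilized limbs 2 exceeded the control median. The log2 fold change was -0.92 ± 0.18 in males and -0.83 ± 0.18 in females. It was -0.87 ± 0.17 in males and -0.96 ± 0.19 in females without the 10 mice.

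**Figure D1:**
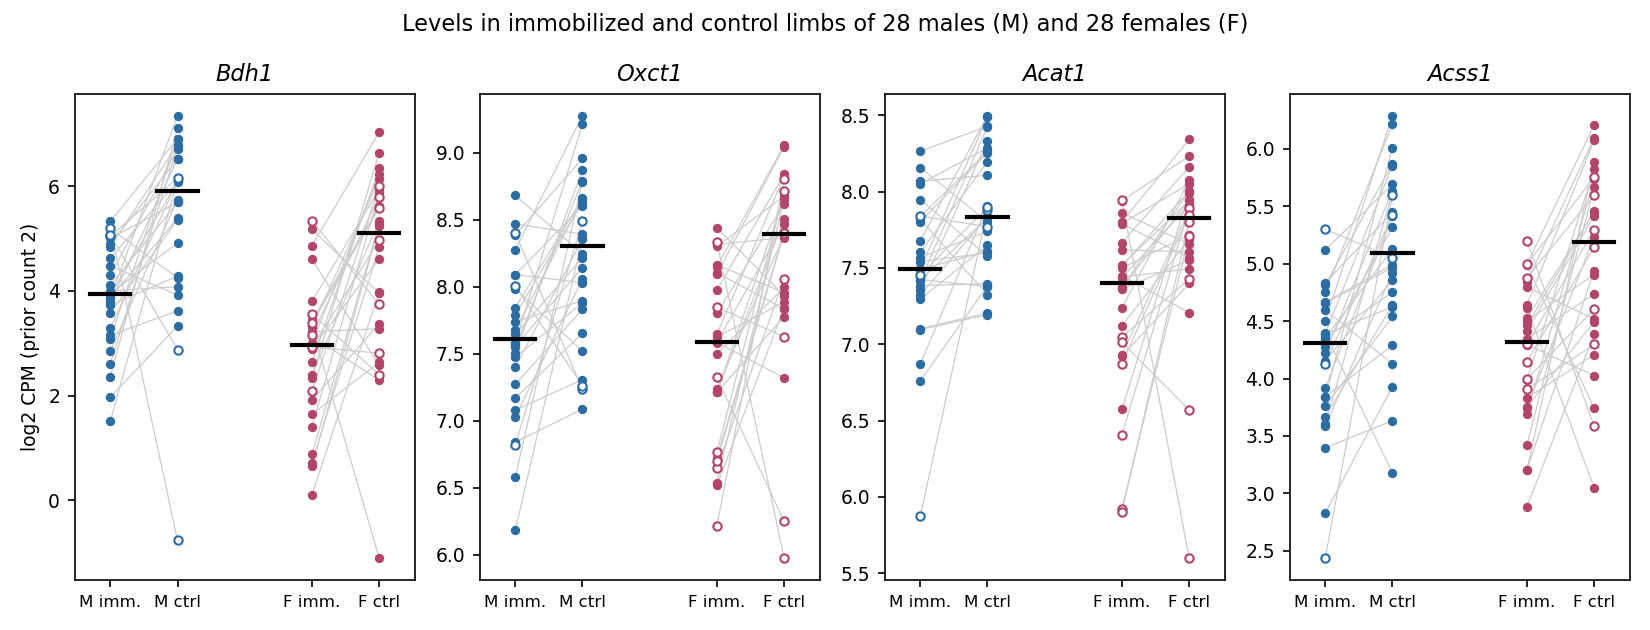
Levels of the 4 genes in each library, on the log2 CPM scale (prior count 2), for males (M, blue) and females (F, pink). Grey lines join the immobilized (imm.) and control (ctrl) limbs of 1 mouse, black bars are group medians and open points are the 10 mice with a library low in Acta1. The immobilized median lies below the control median in all 8 pairs of groups, and 2 control limbs, of male 52 and female 47, have almost no Bdh1.

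With an adjusted p of at most 0.05, 3 of the 4 genes were called lower in males, Acat1 being the exception, against 1.12% of the 11886 genes. In females 4 of 4 were called lower, against 2.47% of genes, and for the mean of the sexes 4 of 4, against 10.4%. The choice of the genes used this contrast, so nothing is read from these counts. The Oxct1 call in males was lost without animals 15 and 16 and without a filter on low counts. Without the 10 mice with low Acta1 all 4 genes were called lower in males, against 4.55% of all genes. Ppargc1a had a log2 fold change of -0.42 ± 0.22 in males and -0.80 ± 0.23 in females, and Ppara had -1.42 ± 0.36 in males and -1.09 ± 0.37 in females.

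**Figure D2:**
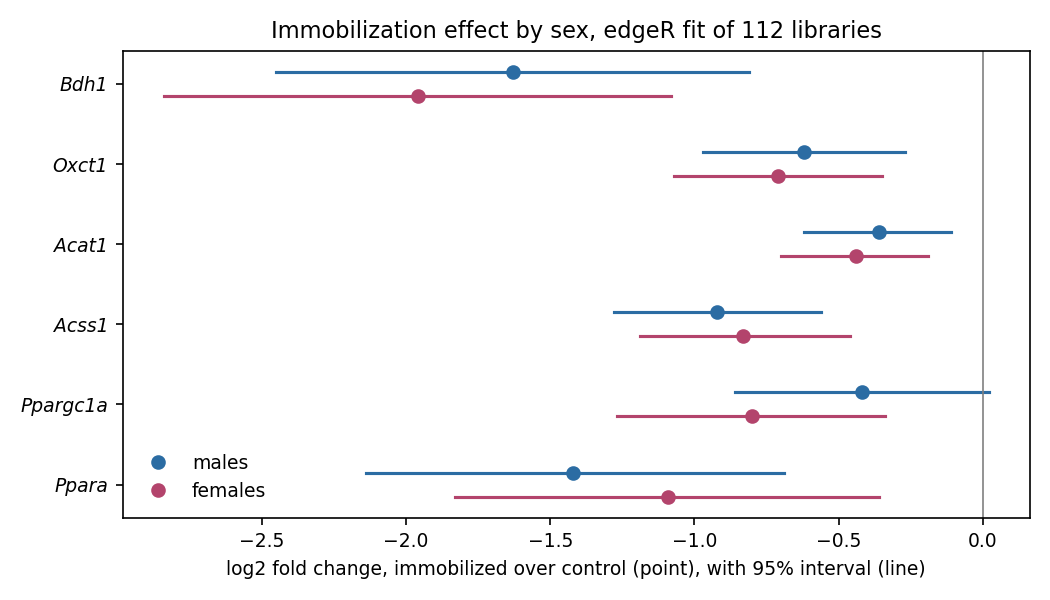
Log2 fold change of the immobilized over the control limb for the 4 genes and both regulators, by sex (males blue, females pink), with 95% intervals as lines, from the edgeR fit of 112 libraries. Bdh1 lies furthest to the left with -1.63 in males and -1.96 in females, and the intervals of the sexes overlap for every gene.

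The 4 genes were chosen by lower counts in these same immobilized limbs. The counts of mice that follow are therefore a description, with no count for other genes beside them. All 4 genes were lower in the immobilized limb of 40 mice (20 males, 20 females), and in 5 mice (male 40 and females 6, 23, 26 and 47) none was. In the other 11 mice 1 to 3 of the genes were lower. Singly, the immobilized limb was the lower one for Bdh1 in 45 mice, for Oxct1 in 43, for Acat1 in 45 and for Acss1 in 48 of 56. The change within mouse (immobilized minus control, log2 CPM) spread widest for Bdh1, between -4.75 and 5.97 with an SD of 2.25, and narrowest for Acat1, between -2.01 and 2.34 with an SD of 0.67.

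The changes of the genes moved together over the 56 mice, with Pearson r between 0.47 (Bdh1 with Acat1) and 0.81 (Oxct1 with Acat1), and with Spearman rho between 0.62 and 0.83. Without the 10 mice with low Acta1 the r values were 0.68 to 0.83. All genes of a limb share its library, and these values are a description.

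The mice carry numbers that fall into blocks of 1 to 20, 21 to 40 and 41 to 59, which the labels do not call batches. The log2 fold change of Bdh1, mean of the sexes, was -2.61 ± 0.36 in mice 1 to 20 (n = 20), -1.52 ± 0.40 in mice 21 to 40 (n = 18) and -1.06 ± 0.70 in mice 41 to 59 (n = 18). That of Acss1 was -1.08 ± 0.17, -0.74 ± 0.25 and -0.78 ± 0.22 over the same blocks. Oxct1 had -0.84 ± 0.14, -0.58 ± 0.24 and -0.50 ± 0.27, and Acat1 had -0.47 ± 0.11, -0.34 ± 0.22 and -0.35 ± 0.15. Every value was negative, and that of each gene lay furthest below 0 in mice 1 to 20, a difference between blocks that was not tested. The mice with low Acta1 are spread unevenly over the blocks. They are female 2 in mice 1 to 20, and females 22 and 26 and male 35 in mice 21 to 40. Females 41, 42, 44 and 48 and males 52 and 55 are in mice 41 to 59. Block values without these mice were not computed.

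Whether the sexes differed is a question that did not enter the choice of the genes. The male minus female difference of the log2 fold changes was 0.33 ± 0.58 for Bdh1 (95% interval -0.84 to 1.5), 0.09 ± 0.25 for Oxct1 (-0.41 to 0.59), 0.08 ± 0.18 for Acat1 (-0.28 to 0.44) and -0.09 ± 0.25 for Acss1 (-0.60 to 0.42). No difference passed edgeR's quasi-likelihood test (adjusted p = 1 for each), and 0% of all genes did. The intervals still allow a sex difference of more than 1 log2 unit for Bdh1. Across all genes 194 had an unadjusted p under 0.05, and DESeq2 called 0.

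Within 1 limb, Bdh1 was the gene with the largest sex difference of the 4. Male over female, its log2 fold change was 0.70 ± 0.37 in control limbs (adjusted p = 0.37, edgeR) and 0.88 ± 0.31 in immobilized limbs (95% interval 0.26 to 1.49, adjusted p = 0.08, edgeR), so neither passed the threshold. The other 3 genes lay between 0.03 and 0.16 in control limbs and between -0.06 and 0.22 in immobilized limbs, with adjusted p between 0.33 and 0.96. Of all genes, 1.80% passed between the sexes in control limbs and 4.86% in immobilized limbs, and 0 of the 4 genes did in either.

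The change of the 4 genes was set against the change of Ppargc1a over the 56 mice. Acat1 had the highest correlation (r = 0.80, rho = 0.67), with 0.143% of 11884 genes reaching such an r. Oxct1 came next (r = 0.72, rho = 0.65; 1.91% of genes). Acss1 had r = 0.47 and rho = 0.37, and 19.1% of all genes had an r at least as high. Bdh1 had r = 0.36 and rho = 0.45, a value of r that 26.5% of all genes reached, so neither stood out from the genes at large.

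Against the change of Ppara, Acss1 (r = 0.58, rho = 0.53), Acat1 (r = 0.58, rho = 0.57) and Oxct1 (r = 0.54, rho = 0.53) had similar values, and 0.572%, 0.749% and 1.31% of all genes reached those r values. Bdh1 had the lowest (r = 0.37, rho = 0.44; 9.24% of genes). Ppara was counted thinly, with a median of 1.28 CPM in immobilized limbs and 3.58 CPM in control limbs. These relations chose the genes and carry no test here.

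The relations were uneven over the mice. Without female 26 and male 35, whose Ppargc1a changes of 3.87 and -3.68 lay furthest from the median, r with Ppargc1a was 0.26 for Acss1, 0.35 for Bdh1, 0.64 for Oxct1 and 0.68 for Acat1. Both mice have a library low in Acta1. Without all 10 mice with low Acta1, r with Ppargc1a was 0.29 for Bdh1, 0.36 for Acss1, 0.46 for Oxct1 and 0.54 for Acat1, and r with Ppara lay between 0.45 and 0.57. Without the 2 mice furthest out in Ppara, r with Ppara was 0.30 for Bdh1, 0.46 for Oxct1, 0.50 for Acat1 and 0.51 for Acss1. The 8 r values lay between -0.06 and 0.43 in mice 1 to 20, between 0.52 and 0.94 in mice 21 to 40 and between -0.06 and 0.76 in mice 41 to 59. Female 26 and male 35 both belong to mice 21 to 40, and r by block was not computed without them. After regression of each change on that of the mean of 8 slow fibre markers, which was added after the data were seen, r with Ppargc1a was 0.09 for Bdh1, 0.32 for Acss1, 0.66 for Oxct1 and 0.75 for Acat1. With Ppara it was 0.26 for Bdh1 and between 0.51 and 0.53 for the other 3 genes.

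**Figure D3:**
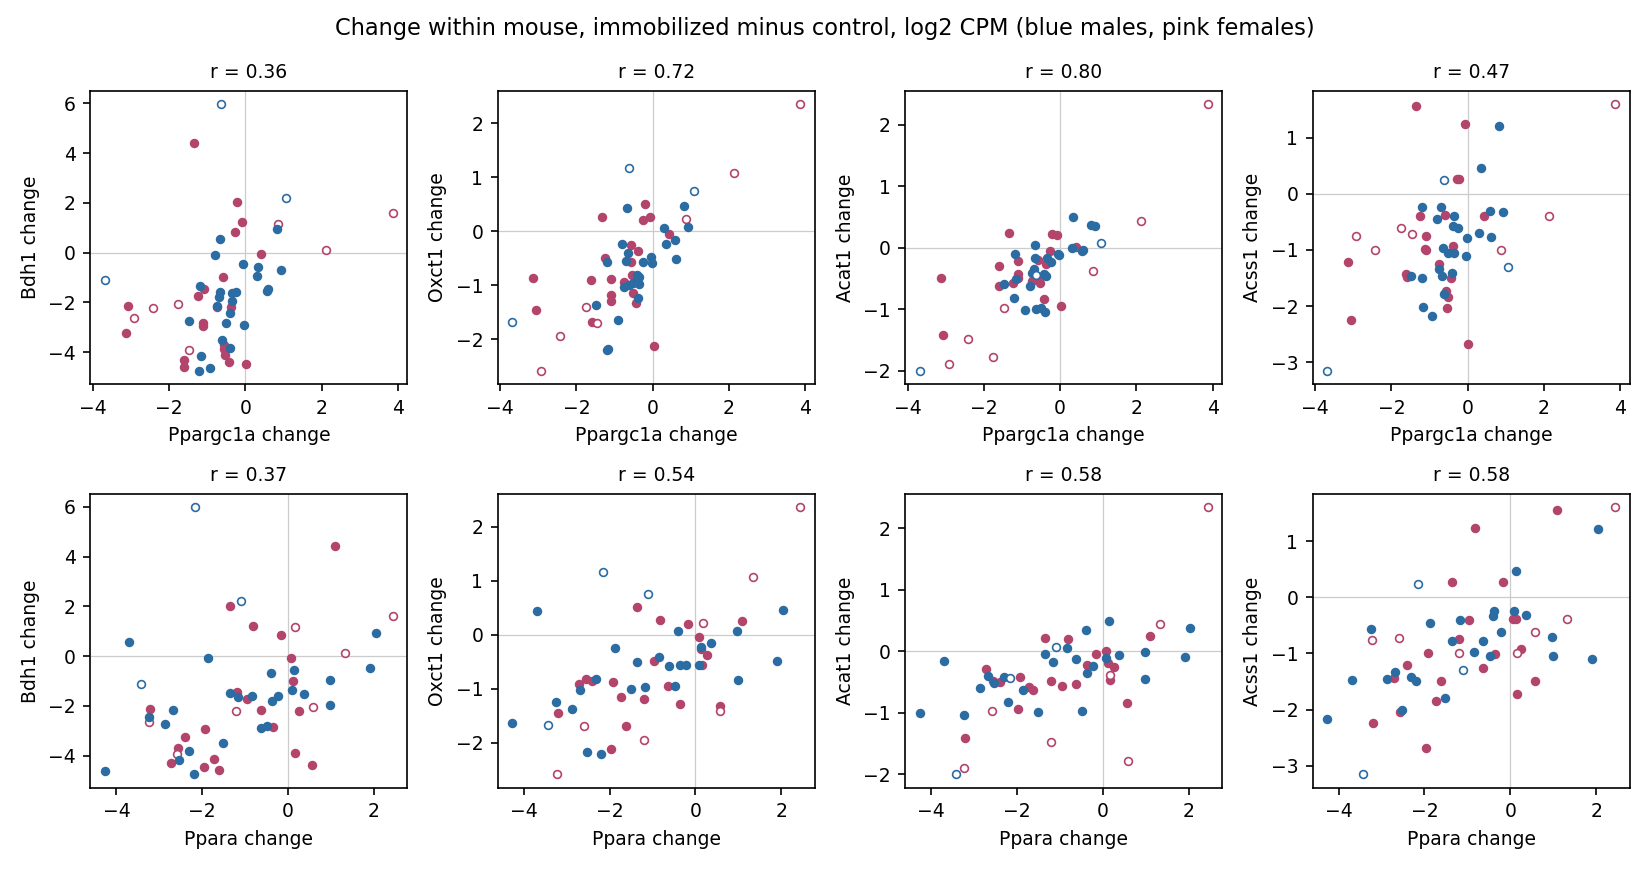
Change within mouse of each of the 4 genes (vertical axes) against the change of Ppargc1a (upper row) and Ppara (lower row), in log2 CPM, immobilized minus control. Each point is 1 of 56 mice (males blue, females pink, open for the 10 mice with a library low in Acta1); Acat1 lies closest to a line with Ppargc1a (r = 0.80), with female 26 at the upper right and male 35 at the lower left.

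The control libraries also form the changes by which the genes were chosen, so their levels in control limbs are set against each other and against both regulators as a description, with no test. In the 56 control limbs r lay between 0.52 and 0.83 and rho between 0.68 and 0.77 over the 6 pairs of the 4 genes. Acss1 had the highest r with Ppara (r = 0.76, rho = 0.69), and 0.0168% of 11884 genes had an r with Ppara at least as high. Against Ppara, Acat1 had r = 0.60 (0.64% of genes at least as high), Oxct1 r = 0.58 (0.825%) and Bdh1 r = 0.38 (6.58%).

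Against Ppargc1a in control limbs, Oxct1 had r = 0.71 (rho = 0.58, an r reached by 0.311% of genes) and Acat1 r = 0.59 (rho = 0.31, 3.59% of genes). Acss1 had r = 0.43 (rho = 0.38, 14.4% of genes) and Bdh1 r = 0.39 (rho = 0.42, 17.6% of genes). The r of Acat1 was 0.28 without the 10 mice with low Acta1, 0.11 in males alone and 0.29 in mice 1 to 20. It was 0.30 (rho = 0.23) without females 26 and 48, the 2 mice furthest out in Ppargc1a. The r of Bdh1 was 0.26 without the 10 mice, and that of Acss1 was 0.18 in males and 0.26 in mice 41 to 59. Between Ppara and Bdh1 r was 0.13 in males and 0.25 without female 47 and male 59, the 2 mice furthest out in Ppara. Between Ppara and Acss1 r stayed between 0.71 and 0.84 in each of these subsets.

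Slow oxidative fibres are rich in mitochondria. Their markers did not enter the choice of the 4 genes, but the control levels of these genes did, as part of the changes. The change of Ppargc1a also had r = 0.43 with that of the slow marker mean (0.20 without the 10 mice with low Acta1). The choice could therefore favour a positive relation, and nothing is concluded from the p values below. In control limbs the mean log2 level of 8 slow fibre markers (among them Myh7 and Tnnt1) had r = 0.79 with Bdh1, 0.66 with Oxct1, 0.57 with Acss1 and 0.52 with Acat1, with rho of 0.70, 0.61, 0.61 and 0.51 (adjusted p for r 2e-05 to 0.00036 over 4 relations, two-sided permutation tests, in which 1e-05 is the smallest p that 100000 resamples can give). The share of all genes with such an r against the slow marker mean was not computed. Without the 10 mice with low Acta1 r lay between 0.54 and 0.73, and without the 2 mice furthest out in the markers between 0.64 and 0.74. The relation of Oxct1 did not pass in mice 1 to 20 (r = 0.36, adjusted p = 0.12, permutation test). By rho, none of the 4 relations passed in mice 1 to 20 (adjusted p 0.081 to 0.18, permutation test). Those of Oxct1 and Acat1 did not pass by rho in mice 21 to 40 either (adjusted p = 0.086 and 0.15, permutation test). The relation of Acat1 in males (r = 0.37) had an adjusted p of 0.049 over these 4 relations and of 0.059 over all 18 relations computed in control limbs, by permutation. Over these 18, rho of Bdh1 in mice 1 to 20 had an adjusted p of 0.028, by permutation. The summed slow marker level had a lowest, median and highest of 142, 2008 and 7416 CPM in male immobilized limbs, against 124, 3359 and 13173 CPM in male control limbs. It was 235, 2667 and 13269 CPM in female immobilized limbs, against 149, 4266 and 11563 CPM in female control limbs.

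**Figure D4:**
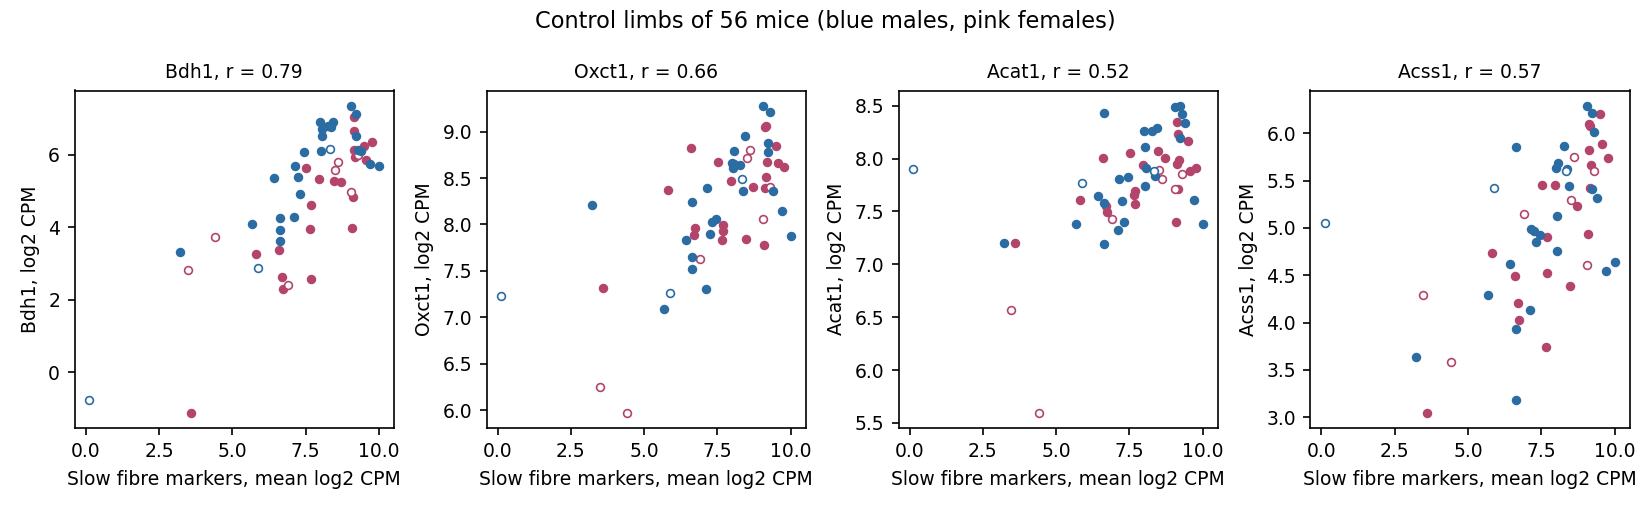
Level of each of the 4 genes (vertical axes, log2 CPM) against the mean log2 CPM of 8 slow fibre markers in the control limbs of 56 mice (males blue, females pink, open for the 10 mice with a library low in Acta1). Bdh1 has the highest r (0.79), with the control limb of male 52 at the lower left.

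Of the 8 slow fibre markers, 1 was called lower for the mean of the sexes, Atp2a2, the slow calcium pump (log2 fold change -0.80 ± 0.25, adjusted p = 0.0173, edgeR), named after its value was seen, against the 10.4% above. The mean slow marker level was lower in the immobilized limb of 33 of 56 mice, and its change had r = 0.73 with that of Oxct1, 0.72 with Bdh1, 0.52 with Acat1 and 0.50 with Acss1. With this mean as a further term, added after the data were seen, the log2 fold changes over both sexes were -1.50 ± 0.21 for Bdh1, -0.58 ± 0.09 for Oxct1, -0.36 ± 0.08 for Acat1 and -0.82 ± 0.11 for Acss1. In such bulk samples fewer cells of a type and less RNA per cell cannot be told apart.

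Markers of other cells moved as well. All 8 macrophage markers were called higher for the mean of the sexes, against 9.58% of all genes, with a summed median of 95.1 CPM in male immobilized limbs, against 69.0 CPM in male control limbs, and of 155 CPM in female immobilized limbs, against 79.6 CPM in female control limbs. Of 6 Schwann cell markers 5 were called higher, and 0 of 8 fibre, 0 of 8 adipocyte, 0 of 3 tested brown adipocyte and 0 of 6 tendon markers passed. Of 7 fibroblast markers 3 were higher, and of 6 endothelial markers 3 were lower and 1 higher. By sex, the median log2 fold change of the 8 adipocyte markers was -0.81 in males and 0.72 in females, with 0 called in either. None of the 10 T, B and NK cell markers was counted highly enough to test. The part of these cells in the lower levels of the 4 genes was not tested.

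Likeness of change was ranked by r over 56 mice among 7395 genes with a mean of at least 10 CPM. Acat1 was closest to Acadm (r = 0.95), the medium-chain acyl-CoA dehydrogenase, and to Etfa and Etfdh (r = 0.94 each), which pass electrons from fat oxidation to the respiratory chain. Oxct1 was closest to Tmem65 (r = 0.94), Idh2 and Mdh1 (r = 0.92 each), the last 2 being the mitochondrial isocitrate and the cytosolic malate dehydrogenase. Acss1 was closest to the fat oxidation genes Hadhb (r = 0.78), Acadm (r = 0.78) and Acadvl (r = 0.77). Bdh1 was closest to Atp1b1 (r = 0.85), a subunit of the sodium pump, then Pla2g12a (r = 0.82) and Idh2 (r = 0.81).

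By level in control limbs the closest genes were Atp1b1 (r = 0.89), Ankrd2 (r = 0.85) and Fabp3 (r = 0.84), a fatty acid binding protein, for Bdh1, and Ppip5k1 (r = 0.91), Tmem65 (r = 0.91) and Mdh1 (r = 0.90) for Oxct1. For Acat1 they were Etfdh (r = 0.94), Etfa (r = 0.94) and Acadvl (r = 0.92), and for Acss1 Ldhb (r = 0.85), Dusp18 (r = 0.82) and Acadl (r = 0.81).

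The wider pathway was lower in part, and no gene of the lists below was called higher for the mean of the sexes, against 9.58% of all genes, while 10.4% of all genes were called lower. All further fold changes are log2, immobilized over control, mean of the sexes, with adjusted p from edgeR's quasi-likelihood test, and the median of all genes was 0.005. Of the 8 tested relatives of the members (11 listed), 5 fell, with a list median of -0.41. They were the beta-oxidation enzymes Hadhb (-0.46 ± 0.10, adjusted p = 0.000875), Acaa2 (-0.46 ± 0.11, adjusted p = 0.00175), Hadh (-0.30 ± 0.07, adjusted p = 0.00297) and Hadha (-0.36 ± 0.09, adjusted p = 0.00337), and the cytosolic acetyl-CoA synthetase Acss2 (-0.49 ± 0.13, adjusted p = 0.00479), named after its value was seen.

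In the transport list 1 of 5 tested genes fell, a list too short to set against that share. It was Slc16a1 (-0.37 ± 0.08, adjusted p = 0.00112), the monocarboxylate transporter MCT1 that carries ketone bodies and lactate across the cell membrane. The list median was -0.17, and the lactate exporter Slc16a3 had -0.17 ± 0.18, Slc16a7 -0.21 ± 0.29 and Slc16a6 -0.06 ± 0.11.

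Of 11 tested genes that handle acetyl groups 6 fell, with a list median of -0.25. Among them were Dlat (-0.40 ± 0.09, adjusted p = 0.00105) and Pdha1 (-0.44 ± 0.11, adjusted p = 0.00297), subunits of pyruvate dehydrogenase, and Sirt3 (-0.45 ± 0.10, adjusted p = 0.00113), the mitochondrial deacetylase that acts on acetyl-CoA synthetase. Slc25a20, the carnitine carrier, also fell (-0.25 ± 0.08, adjusted p = 0.0244).

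Of 17 tricarboxylic acid cycle and succinyl-CoA genes 5 fell and 17 had values below 0, with a list median of -0.23. Without the 10 mice with low Acta1, 16 of the 17 were called lower, against 16.2% of all genes. The 5 included Dld (-0.46 ± 0.10, adjusted p = 0.00172) and Dlst (-0.27 ± 0.07, adjusted p = 0.00639), subunits of the 2-oxoglutarate dehydrogenase complex, and Sdhb (-0.32 ± 0.11, adjusted p = 0.0265), a subunit of succinate dehydrogenase. Idh3b of isocitrate dehydrogenase also fell (-0.36 ± 0.13, adjusted p = 0.0331). The fifth was Suclg2, a subunit of succinyl-CoA ligase (-0.23 ± 0.08, adjusted p = 0.0338), named after its value was seen.

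Of 12 regulators 7 fell, with a list median of -0.32, although Ppara and Ppargc1a entered the choice of the 4 genes. Ppara had -1.25 ± 0.26, Ppargc1a -0.61 ± 0.16, Esrrg, an estrogen-related receptor of oxidative muscle, -0.82 ± 0.20 (adjusted p = 0.00383), and Gabpa, an ETS factor of mitochondrial genes, -0.32 ± 0.07 (adjusted p = 0.00105). Without the 10 mice, 9 regulators, 7 acetyl handling genes, 5 relatives and 1 transporter were called lower, against 16.2% of all genes. With the slow fibre term, where 10.0% of all genes were called lower, 6 relatives, 6 acetyl handling genes, 5 cycle genes, 7 regulators and 1 transporter were called lower.

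**Figure D5:**
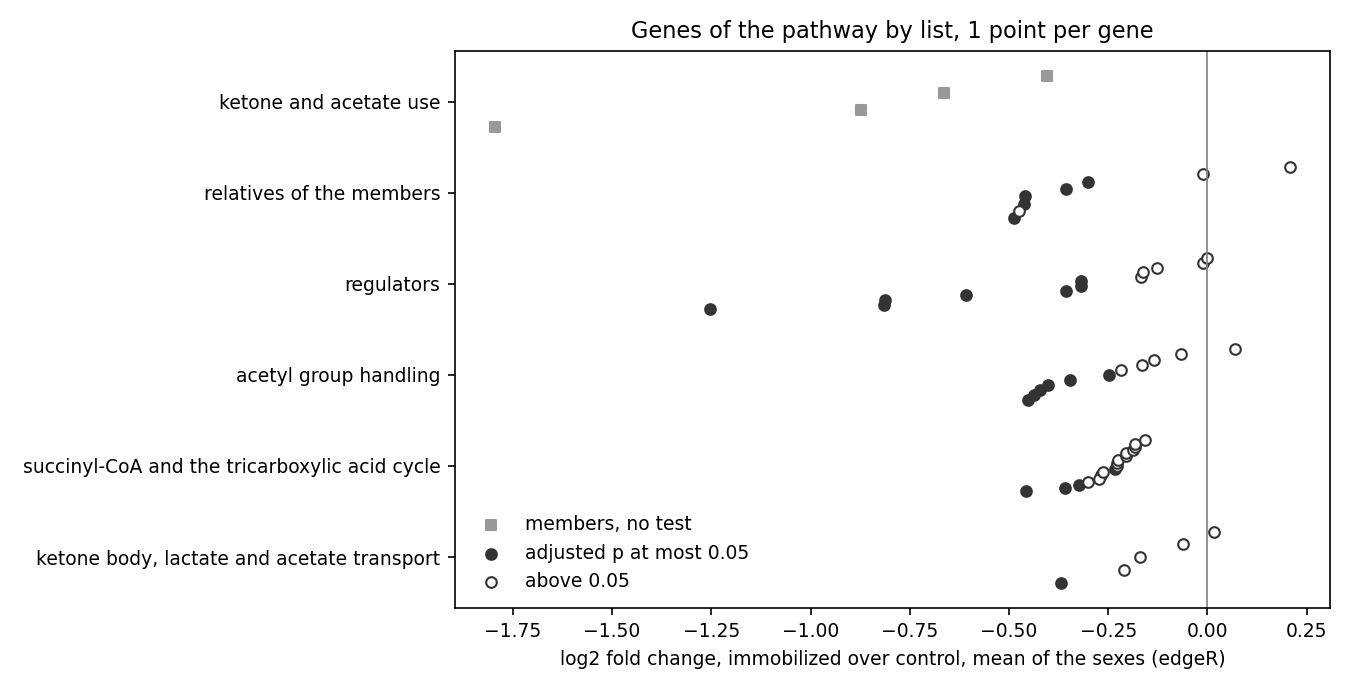
Log2 fold change of the immobilized over the control limb, mean of the sexes, with 1 point per tested gene, for the 4 genes (grey squares, no test) and 5 lists of related genes. Filled circles have an adjusted p of at most 0.05, all of them left of 0, and the largest open value to the right is 0.21, among the relatives of the members.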

How the data were processed

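Gastrocnemius RNA of 56 mice was extracted with a fibrous tissue kit and made into stranded total RNA libraries after ribosomal RNA removal, per the labels' protocols. The authors deposited whole-number read counts per gene symbol in tables of all libraries; no source used here names the aligner, counter, strand setting or genome build, and reads of near-identical paralogs could be split unevenly. Of 32544 symbols, 11886 passed edgeR's filterByExpr.

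Counts were tested with edgeR 4.0.16 in R 4.3.3 (quasi-likelihood, TMM, Benjamini-Hochberg over all tested genes, threshold 0.05). The model held 1 term per animal and an immobilization effect per sex; sex was tested within each limb. Limbs of 1 mouse deviated together in most mice (median r = 0.36, against 0.0013 between mice of 1 sex, 45 of 56 mice over 0.1). The lowest r within a mouse was -0.43, and the pairing comes from the animal numbers in the labels. No 2 libraries of 1 group were alike within sampling noise, and no 2 of all had identical counts. Changes and correlations used log2 CPM with a prior count of 2 (Python 3.11.15). Correlations with slow fibre markers in control limbs were tested with 100000 resamples, although the control libraries also entered the choice of the genes. The others carry no test because their libraries chose the genes. The edgeR and permutation procedures were both run on simulated data as a check of the code, which does not cover the effect of the libraries low in Acta1. Promoter windows came from RefSeq tables.

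Members and lists were chosen with earlier results of these data known. Some genes of the pathway are not reported here. Named genes are the members, Ppargc1a, Ppara, the up to 4 genes with the smallest p of each list, and the 3 closest genes of each member; Acss2, Suclg2 and Atp2a2 were named after their values were seen, to complete a count. Alternatives were DESeq2 1.42.0 and its size factors, no filter on low counts, no mitochondrial transcripts in the library size, no replicate block, a prior count of 0.5, subsets of animals and a slow fibre term.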

Additional observations from a re-analysis of the deposited data

How the results depend on the processing

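Over the alternatives run, the log2 fold change of the 4 genes stayed negative in both sexes and in their mean, between -2.61 and -1.06 for Bdh1, -0.84 and -0.50 for Oxct1, -0.47 and -0.34 for Acat1 and -1.08 and -0.74 for Acss1 (mean of the sexes). The causes of the differences below were not tested. Genes called in males, 263 in all mice, were 576 with DESeq2, 109 without a filter on low counts, 400 with the slow fibre term, 1066 without the mice with low Acta1 and 7, 1 and 1 in mice 1 to 20, 21 to 40 and 41 to 59. With no replicate block they were 589, and the block changed no call of the 4 genes. Genes called in females, 543 in all mice, were 1145 with DESeq2, 145 without the filter, 2006 without the mice with low Acta1, and 0 in mice 21 to 40 and in mice 41 to 59 (241 and 1507 at an unadjusted p under 0.05 by edgeR). For the mean of the sexes the count was 2371, and it was 3834 without the mice with low Acta1 and 1071, 2 and 2 in the number blocks. For the difference between the sexes it was 0, and 1 with no replicate block. Between the sexes, 214 genes were called in control limbs (808 without the filter, 370 without the mice with low Acta1) and 578 in immobilized limbs (1662 and 212). The correlations of changes with Ppargc1a and Ppara, which carry no test, had a median r of 0.56 over all mice and of 0.28, 0.78 and 0.56 in the number blocks. The untested correlations in control limbs had a median r of 0.62, and of 0.45 in males.

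Results that changed sign were values near 0 that passed no test, and 3 correlations of changes. The male minus female difference was -0.05 for Oxct1, -0.12 for Acat1 and 0.10 for Ppara in mice 21 to 40, 0.06 for Acss1 in mice 1 to 20, and 0.09 for Acss1 and 0.02 for Ppara without the mice with low Acta1. Male over female without those mice, it was 0.00 for Oxct1 and -0.03 for Acss1 in control limbs, and -0.02 for Oxct1, 0.02 for Acss1 and 0.01 for Ppara in immobilized limbs. The correlation of changes with Ppara was 0.54 for Oxct1 and 0.58 for Acat1 in all mice and -0.02 for Oxct1 and -0.06 for Acat1 in mice 1 to 20, and that of Acss1 with Ppargc1a was 0.47 in all mice and -0.06 in mice 41 to 59. The immobilization values of Slc16a7, Slc16a6 and Slc16a3 were 0.02, 0.09 and 0.09 in mice 1 to 20, 21 to 40 and 41 to 59. Without the filter the calls of Acat1 and Ppargc1a in females, Oxct1 and Ppara in males, Idh3b and Sdhb were lost, and without the mice with low Acta1 Acat1 in males and Ppara in females were called. Ppara is limited by depth, with medians of 6 counts in immobilized and 13.5 in control limbs.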
